A study of Mus musculus with 12 samples.

Results

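Mouse pancreatic tumour cells labelled as knocked out for Klf5 were compared with wild-type cells of the same name across all expressed genes. The members are 6 of the 12 RNA-sequencing libraries of the series: 3 whose genotype label is Klf5KO and 3 whose label is WT. The remaining 6 libraries, 3 EgfrKO and 3 Smad4KO, served to show where Klf5KO differed from other knockouts. Every library came from C57BL/6 material named 6649c2, and all were sorted from tumours grown under the skin, so the WT cells passed through the same implantation and sort. No other allele or agent is named in the labels, which give neither the sorting gate, nor the clonality of a knockout, nor whether the replicates are separate tumours. An effect of the targeted gene and a difference in clonal origin cannot be told apart. Of 24493 genes in the deposited table, 13662 reached a TPM (a gene's share of the transcripts of a library, corrected for transcript length and scaled to a fixed sum) of at least 1 in at least 3 of the 12 libraries and were tested. Since nothing says that the 3 libraries of a group came from separate animals, p-values measure the spread between these libraries, which may be technical.

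KLF5 is a zinc-finger transcription factor of the Krüppel-like family, which with the SP factors binds GC-rich and CACCC sequences in promoters and enhancers. It is expressed in proliferating epithelial layers of the gut, skin and pancreatic ducts and is known there for sustaining epithelial genes. In pancreatic ductal tumours it is found mainly in cells that keep an epithelial, low-grade appearance, and it acts downstream of growth-factor signalling while its targets overlap with those of TGF-beta and SMAD signalling.

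Ribosomal protein genes took a smaller share of the transcripts in Klf5KO. The 88 genes of cytosolic ribosomal proteins, the protein parts of the machine that makes all other proteins, took 21%, 20.6% and 21.1% of the deposited TPM in the 3 WT libraries and 13.1%, 14.7% and 14% in Klf5KO. The groups did not overlap, and the other 6 libraries lay between 18.48% and 20.38%, so Klf5KO stood below all other libraries. The mean fell by 6.96 percentage points, from 20.9% ± 0.246 (SD, n = 3) to 13.9% ± 0.767 (SD, n = 3), and the two-sided exact permutation test gave 0.1, the smallest p that 3 libraries against 3 allow. Because TPM of every library has the same sum, this share had to reappear in other genes: the median deposited log2 difference over all tested genes was 0.306 and not 0. The largest gain was that of Mir6236, a microRNA entry, from a mean of 6.93% to 8.09%, or 1.16 percentage points. It varied between libraries: Klf5KO replicate 2, at 6.93%, lay within the WT range of 6.63% to 7.21%. Of the 15 percentage points that falling genes lost in all, 46.5% came from ribosomal protein genes. Leaving out ribosomal protein genes and rescaling the rest to the same sum lowered the median only to 0.205, so these genes alone did not account for the shift. Genes with a mean TPM of at least 500, 246 in number with ribosomal protein genes among them, carried 75.6% of the lost share. Their deposited median was -0.27, against 0.40 for genes between 5 and 20 TPM. With ribosomal protein genes left out, 167 genes averaging at least 500 TPM over WT and Klf5KO had a deposited median of 0.016.

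Each library was therefore divided by a median-of-ratios factor, which lay between 0.886 and 0.912 in WT and between 1.126 and 1.196 in Klf5KO, and the result is called scaled TPM below. On that scale the median over all genes was -0.007. Differences are Klf5KO minus WT in log2(scaled TPM + 1) from limma, with their standard errors (SE) and Benjamini-Hochberg adjusted p, and a gene is said to rise or fall where the adjusted p is under 0.05. With that rule 3397 genes rose (24.9% of those tested) and 3732 fell (27.3%), whereas on deposited TPM 7536 were higher (55.2%) and 1518 lower (11.1%). All 3397 that rose were also higher on deposited TPM, and 1518 of those that fell were also lower. For rising genes this was nearly given in advance, since leaving out the factors raises Klf5KO against WT in almost every gene. Only for falling genes is the deposited scale a stricter check. A further 261 fell on the scaled and were higher on the deposited values, and their direction is a matter of scale. Changes of at least 1 on the log2 scale were made by 436 rising genes (3.19%) and 586 falling genes (4.29%). In 58.2% of the genes tested no Klf5KO library overlapped a WT library.

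**Figure D1:**
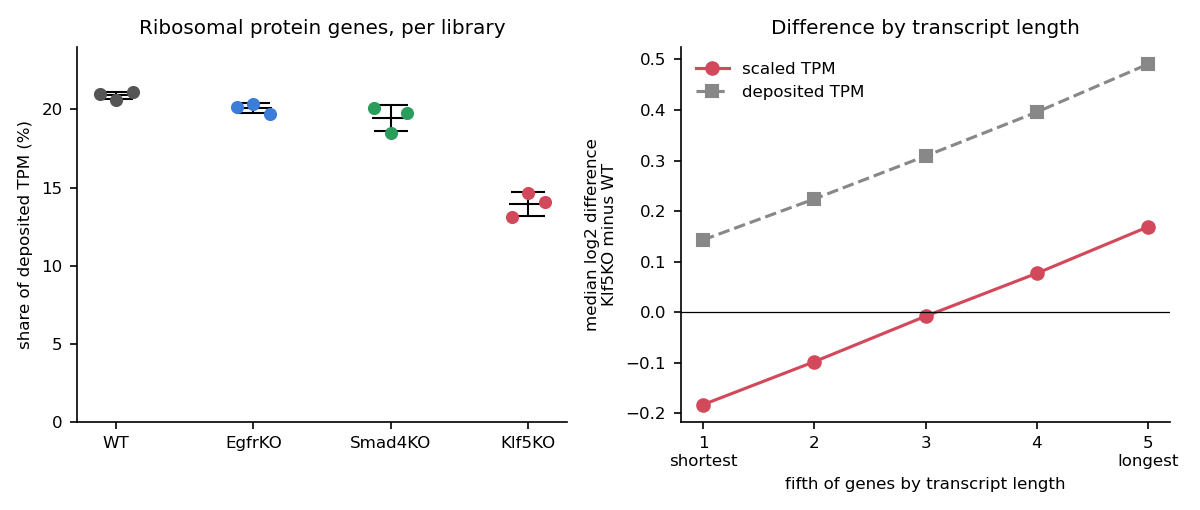
Left, share of deposited TPM taken by ribosomal protein genes (y axis, percent) in each library (points), with the mean and SD of 3 libraries in black. The Klf5KO points lie between 13.1% and 14.7%, below the other 9. Right, median log2 difference (y axis) in 5 equal groups of genes by transcript length (x axis), which climbs from -0.18 to 0.17 on scaled TPM (circles) and from 0.14 to 0.49 on deposited TPM (squares).

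The difference also moved with transcript length, as the plot by length shows. A protein-coding transcript length was found for 12491 of the tested genes (91.4%). Cut into 5 equal groups by length, the group with the shortest transcripts had 15.5% of genes that rose and 42.8% that fell, and the group with the longest 44.1% and 13.7%. Ribosomal protein genes are short, with a median of 697 bases against 2099 for all genes with a length, but without them the medians of the groups still ran from -0.167 to 0.169. Abundance moved with it as well: among 167 other genes of at least 500 TPM the scaled median was -0.34, with 11 that rose and 117 that fell. On deposited TPM their median was 0.016, against 0.318 for all genes with a length. What lies behind the trend was not tested. When the trend with length was removed from each library, 3170 genes rose and 3544 fell, and 80 of 83 ribosomal protein genes still fell with a median of -0.75.

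Among the 84 ribosomal protein genes tested, 80 fell, 2 rose and 2 passed neither way, with a median of -0.92 against -0.007 for all genes; 79 were also lower on deposited TPM. Rpl36, a protein of the large subunit, stood at 4680, 4630 and 4860 scaled TPM in WT and at 1530, 2110 and 1890 in Klf5KO, with no overlap, and fell by 1.37 on the log2 scale (SE 0.11, adjusted p 2.81e-06). The largest fall in the list was that of Rpl22l1, a paralog of Rpl22 that can replace it in the ribosome: 449, 475 and 459 became 95.5, 123 and 129, a log2 difference of -1.99 (SE 0.11, adjusted p 1.97e-07). Rps27, a protein of the small subunit chosen after its values were seen, measured 484, 14.4 and 121 in the 3 Klf5KO libraries against 389 to 661 in WT, and did not pass the test (adjusted p 0.0571); Rps27rt, which lists 0.72% of WT TPM and 0.315% of Klf5KO TPM, is a near copy of it, and reads can be split between such copies. The 2 genes that rose were Rpl7l1, by 0.23, and Rps4l, which lay at 2.33 scaled TPM or less.

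Proteins that work with the ribosome did not all follow. Of 29 translation factors, 20 fell and 1 rose (median -0.37), and on deposited TPM 9 were lower and 11 higher. With the mean of a fibroblast marker list, described below, as a covariate 11 fell. That covariate left 897 higher and 1220 lower among all 13662 genes, and list counts under it are to be read beside these. It comes from the same libraries and itself differs by genotype, with marker sums of 62.7 to 158 in WT and 351 to 725 in Klf5KO. Calls lost under it therefore cannot be assigned to fibroblast content. Tpt1, a small abundant growth-related protein whose messenger carries the same kind of translation control element as ribosomal protein messengers, went from 0.999% to 0.55% of TPM, more percentage points than any other gene lost. Eef1b2, an elongation factor subunit, and Eif3h, an initiation factor subunit, fell by 0.79 and 0.62. Eif4g1, the initiation scaffold, was the only member that rose. In ribosome biogenesis, the making of ribosomes in the nucleolus, 9 of 20 fell and 5 rose, but 13 were higher and 1 lower on deposited TPM, and with the fibroblast covariate 3 fell and 1 rose. The methyltransferase Fbl fell by 0.52, whereas Ubtf, which drives ribosomal RNA transcription, rose by 0.33 (67.1, 67.4 and 67.3 in WT; 81.6, 82.6 and 90.3 in Klf5KO). Ribosomal proteins of mitochondria fell in 44 of 78 and rose in none, with a median of -0.25 that became 0.09 on deposited TPM, and 9 fell with the fibroblast covariate.

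The lower level of cytosolic ribosomal protein genes was also seen against the other knockouts. In the contrast of Klf5KO with the mean of EgfrKO and Smad4KO, in which 4078 genes were higher (29.8%) and 4234 lower (31%), 81 of the 84 were lower and none higher (median -0.70). Rpl36 averaged 4209 in EgfrKO and 3904 in Smad4KO against 1841 in Klf5KO.

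**Figure D2:**
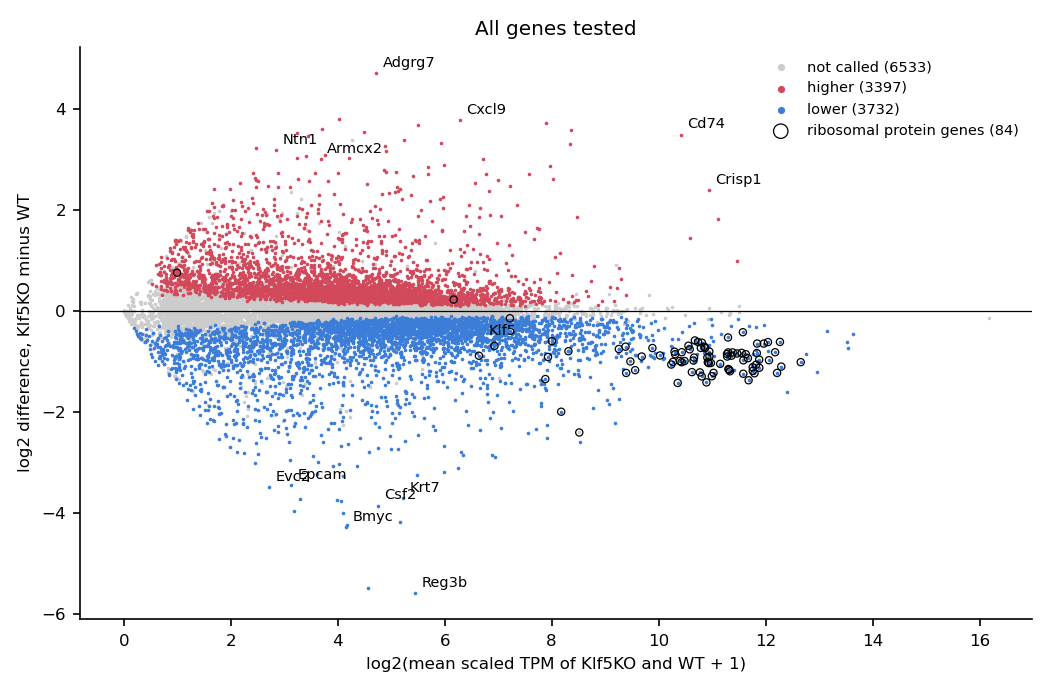
Log2 difference between Klf5KO and WT (y axis) against log2 of the mean scaled TPM plus 1 (x axis) for the 13662 genes tested, coloured by call. Rings mark the 84 ribosomal protein genes, most of which lie at high levels and between 0 and -2.

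Klf5 transcripts were lower in Klf5KO but far from absent. Klf5, on chr14:99298691-99313412 of GRCm38.p6, was at 108, 120 and 147 scaled TPM in WT and at 84, 78 and 82.7 in Klf5KO. The groups did not overlap, and the Klf5KO level was 0.65 of that in WT (log2 difference -0.60, SE 0.096, adjusted p 0.00035; exact permutation p 0.1, the smallest possible). On deposited TPM the difference was -0.25 (adjusted p 0.0411; exact permutation p 0.2), and with the mean of a fibroblast marker list as a covariate it was -0.36 and did not pass (adjusted p 0.201). EgfrKO libraries held 79.6, 88.3 and 87.6, and Klf5KO differed from them by -0.06 (SE 0.096, adjusted p 0.628), so the level of Klf5 transcript does not set the libraries labelled Klf5KO apart from those labelled EgfrKO. A gene-level TPM does not show which exons are present or whether protein is made. Smad4 was at 78.9 to 90.0 in WT and 80 to 85.3 in Klf5KO (adjusted p 0.886 on scaled and 0.34 higher on deposited TPM). Egfr, the receptor for EGF and its relatives, fell from 13.7, 15.3 and 14.8 to 5.84, 7.41 and 4.83 (log2 -1.16, SE 0.15, adjusted p 9.65e-05). The other knockouts were also below WT, at 3.75 to 4.98 in EgfrKO and 6.76 to 10 in Smad4KO. Klf5KO did not differ from their mean by the test (log2 0.01, adjusted p 0.955), but that mean averages opposite differences. Taken singly, Klf5KO was above EgfrKO (log2 0.40, adjusted p 0.0486). It lay below Smad4KO without being called (log2 -0.38, adjusted p 0.0519).

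Most other tested members of the KLF and SP family fell with it. Of 15 tested, Klf5 included, 10 fell and none rose (median -0.33). On deposited TPM 7 were lower, Klf5 again included, and 4 higher. With the fibroblast covariate 4 fell. Klf4, a close relative known for promoting epithelial differentiation, had 124, 141 and 184 scaled TPM in WT and 49.3, 59.1 and 43.9 in Klf5KO (log2 -1.53, SE 0.13, adjusted p 4.1e-06). Klf4 was also 0.84 lower than in the other knockouts (adjusted p 7.13e-05), with EgfrKO at 87.5 to 92.4 and Smad4KO at 87.6 to 96.6. The family as a whole was not: in that contrast 3 of the 15 were lower and 2 higher (median -0.07). Klf10 and Klf11, both induced by TGF-beta, fell by 0.88 and 0.76.

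Epithelial genes fell broadly, though not as a whole. All 10 tested keratins, the filament proteins of epithelial cells, fell (median -0.80), and 7 of them were lower on deposited TPM too. Krt7, a keratin of ducts and simple epithelia, went from 64.6, 69.9 and 71.2 scaled TPM to 4.36, 5.62 and 3.25 (log2 -3.71, SE 0.12, adjusted p 8.48e-09). Its level in Klf5KO was also far under the 152 to 165 of EgfrKO and the 132 to 144 of Smad4KO, where it was higher than in WT, so Krt7 moved in opposite directions (Klf5KO against both, log2 -4.80, adjusted p 1.43e-10). Krt14, the basal-cell keratin, fell from 117, 104 and 114 to 44.2, 43.2 and 47.8, and Krt19, a major duct keratin, from 1110, 1180 and 1240 to 597, 698 and 641. Relative to the other knockouts all 10 keratins were lower.

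Among 32 genes of epithelial junctions, 17 fell and 7 rose (median -0.29), and on deposited TPM 12 were lower and 11 higher. Epcam, a surface adhesion protein of epithelial cells, stood at 12.7, 16.0 and 16.5 in WT and at 0.568, 0.279 and 0.553 in Klf5KO (log2 -3.45, SE 0.11, adjusted p 6.55e-09). EgfrKO held only 1.27 to 1.35 of it, while Smad4KO held 39.2 to 41.6. Ocln, a tight-junction membrane protein, fell from 2.94 to 4.04 down to 0.0892 to 0.266, and Pkp1, a desmosome plaque protein, by 2.24. Cdh1, the E-cadherin of adherens junctions, did not fall: 171, 191 and 191 in WT stood beside 237, 196 and 200 in Klf5KO (log2 0.19, adjusted p 0.0448), a call that was lost when the trend with transcript length was removed (0.08, adjusted p 0.271). Cdh1 was nevertheless lower than in the other knockouts by 0.56 (adjusted p 1.36e-05), which had 267 to 379. Cldn2, a pore-forming claudin, and Evpl, a cornified-envelope linker, rose.

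Regulators and surface proteases of epithelium mostly fell. Of 14 genes 9 fell and 1 rose, and 5 fell with the fibroblast covariate. Elf3, an epithelium-specific ETS factor, fell from 48.4, 56.8 and 48.2 to 12.8, 12.5 and 10.3 (log2 -2.02, SE 0.08, adjusted p 2.6e-08) and was 3.03 below the other knockouts. Spint2, an inhibitor of surface serine proteases, fell by 1.05. The member that rose was Ehf, the nearest relative of Elf3, which went from 8.93 to 10.2 up to 11.4 to 14 (log2 0.37, adjusted p 0.00217). Of 22 laminins, integrins and hemidesmosome genes 7 fell and 5 rose, shares near those over all genes, and on deposited TPM 15 were higher and 3 lower. Lamb3, a chain of the epithelial laminin of the basement membrane, fell by 2.67, while Lama4, a laminin chain of vessels and mesenchyme, rose from 3.19 to 3.83 up to 13.5 to 17.2 and the collagen receptor chain Itga1 from 10.2 to 11.8 up to 38.0 to 45.0.

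The promoters of Krt7 and Epcam are shown because both genes were among the 15 largest decreases and both hold the core letters that KLF and SP factors bind. These are the 250 bases upstream of the RefSeq start on GRCm38.p6, plus strand, and capitals mark CCNCNCCC on either strand.
Krt7, chr15:101412153-101412402: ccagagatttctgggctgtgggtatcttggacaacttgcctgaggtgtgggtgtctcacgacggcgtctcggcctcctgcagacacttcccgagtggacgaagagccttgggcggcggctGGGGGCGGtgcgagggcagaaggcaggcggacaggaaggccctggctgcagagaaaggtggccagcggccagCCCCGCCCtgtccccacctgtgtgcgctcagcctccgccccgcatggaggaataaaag
Epcam, chr17:87635729-87635978: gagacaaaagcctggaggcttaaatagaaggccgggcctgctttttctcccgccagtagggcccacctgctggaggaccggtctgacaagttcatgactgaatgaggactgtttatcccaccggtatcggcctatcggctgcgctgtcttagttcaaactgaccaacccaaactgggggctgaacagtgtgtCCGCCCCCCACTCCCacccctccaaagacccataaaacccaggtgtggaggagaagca
The letters occur 2 times in each, overlapping in Epcam. They are common: of 10387 tested genes with such a promoter, 66.8% held them, as did 69.4% of the genes that fell, 67.6% of those that rose and 70.5% of those that fell by at least 1. Of genes that rose by at least 1, 57.2% held them. A match is a description of letters and not a binding site.

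Genes of gastric surface cells, which pancreatic tumours often switch on, and of mucosal defence fell strongly. In the gastric list 9 of 16 fell and 2 rose (8 lower and 2 higher on deposited TPM), and 15 of 16 were below the other knockouts. Lgals4, a galectin of gut epithelium, went from 86.2, 87.7 and 65.5 to 8.3, 8.62 and 5.68 (log2 -3.25, SE 0.14, adjusted p 3.3e-08), against 121 to 133 in EgfrKO and 364 to 380 in Smad4KO. Anxa10, an annexin of gastric epithelium, fell by 1.82, whereas Muc5b, a secreted gel-forming mucin, rose by 1.32. In the mucosal list 8 of 13 fell and 2 rose. Dmbt1, a scavenger-receptor glycoprotein of mucus, fell from 61.3, 78.2 and 60.8 to 1.77, 4.47 and 2.42 (log2 -4.17, SE 0.20, adjusted p 8.15e-08), while Smad4KO held 586 to 689. Reg3g and Reg1, secreted C-type lectins of injured pancreas and gut, fell by 3.75 and 3.73, and Wfdc2, a secreted protease inhibitor, by 1.74. Nos2, the inducible nitric oxide synthase, rose by 1.15.

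Of 16 factors that set pancreas and gut identity 6 fell and 5 rose (median 0.05), 9 were higher and 4 lower on deposited TPM, and with the fibroblast covariate 2 fell and none rose. Hnf4a, a hepatocyte nuclear factor of endoderm, rose from 74.9 to 83.6 up to 97.7 to 107 (log2 0.38, SE 0.053, adjusted p 0.000139), and Pdx1, the pancreas master factor, by 0.31. Sox9, a factor of ducts and progenitors, fell from 119, 125 and 142 to 83.0, 92.6 and 91.3, and Sox2, of foregut progenitors, by 1.07. Both were still higher than in the other knockouts, by 0.45 and 0.74 (adjusted p 3.85e-05 and 0.00143).

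**Figure D3:**
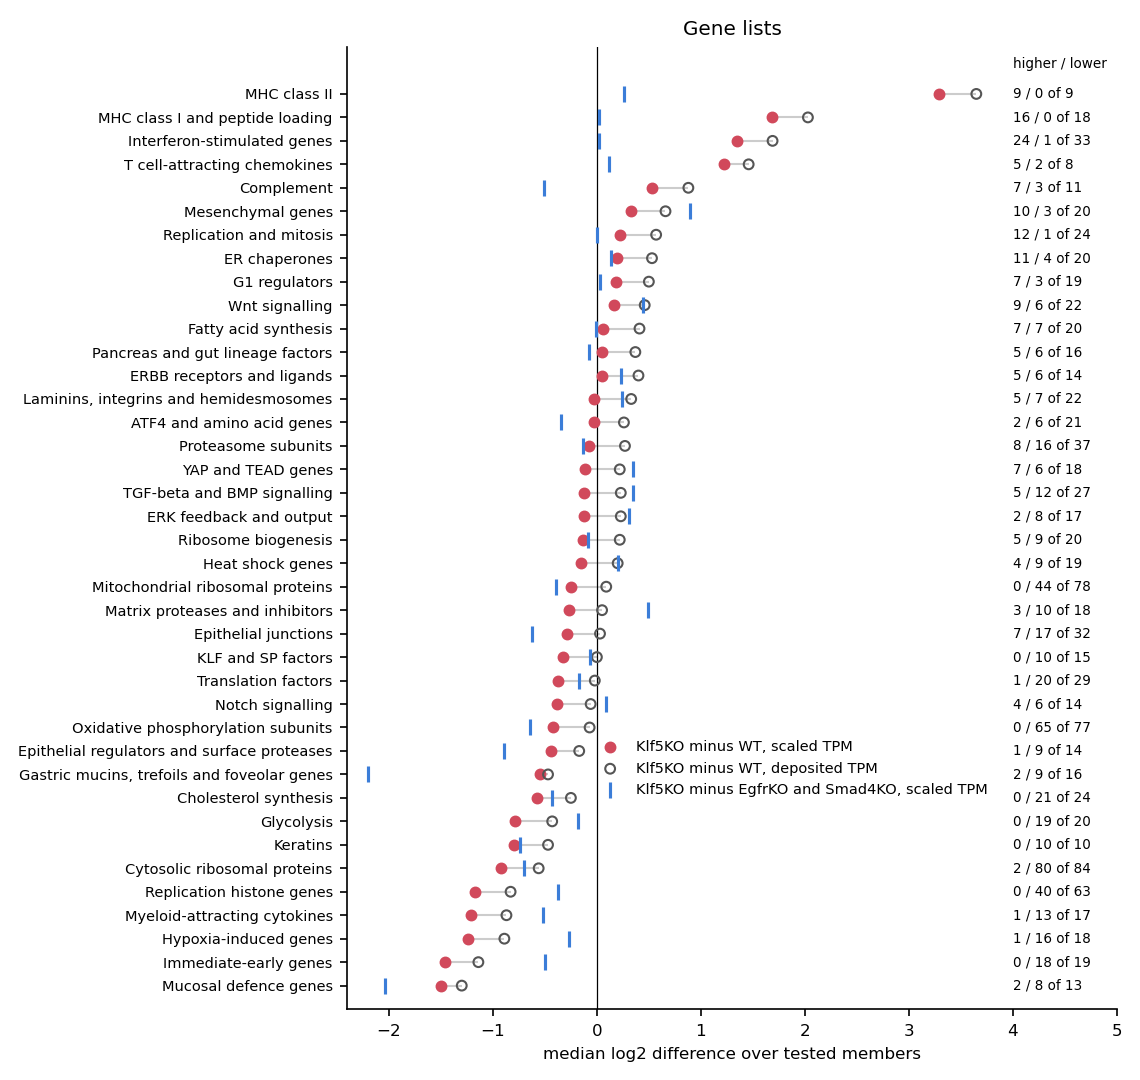
Median log2 difference (x axis) over the tested members of each pathway list (y axis), for Klf5KO minus WT on scaled TPM (filled) and deposited TPM (open) and for Klf5KO minus the other knockouts (bars). The text at the right gives members higher and lower of those tested, from 9 and 0 of 9 for MHC class II at the top to 2 and 8 of 13 for mucosal defence at the bottom.

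Mesenchymal genes were higher in Klf5KO. Of 20, 10 rose and 3 fell (median 0.33), and against the other knockouts 17 were higher and none lower (median 0.90). Tnc, the matrix protein tenascin C, went from 24.4, 21.2 and 23.9 to 69.0, 54.0 and 64.9 (log2 1.39, SE 0.10, adjusted p 1.54e-06), with only 5.77 to 10 in the other 6 libraries. Cdh2, the N-cadherin that many mesenchymal and tumour cells carry, rose from 61.9, 60.6 and 63.9 to 116, 110 and 113 (log2 0.85, SE 0.05, adjusted p 3.2e-07), and the mesenchymal homeobox gene Prrx1 by 0.76. Not all members followed: Twist1, an inducer of mesenchymal transition, fell by 1.09, the calcium-binding protein S100a4 by 1.02, and Vim, the mesenchymal filament protein, by 0.32 on scaled TPM but not on deposited TPM (0.04). Markers of fibroblasts moved with these genes. Of 12 fibroblast markers 6 rose and none fell, and their summed deposited TPM was 62.7 to 158 in WT and 351 to 725 in Klf5KO, highest in Klf5KO replicate 1. Postn, a matrix protein of activated fibroblasts, went from 14.5, 8.67 and 5.8 to 82.5, 45.0 and 43.2, and Pdgfrb, the PDGF receptor of fibroblasts and pericytes, from 2.43 to 3.12 up to 6.99 to 8.78. In sorted cells from tumours, more cells of a type and more RNA per cell cannot be told apart. With the mean of the fibroblast list as a covariate, 4 of the 20 mesenchymal genes rose and 2 fell, and the falls named above numbered 6 of 10 in keratins, 11 of 32 in junctions and 71 of 84 in ribosomal proteins.

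Among 18 matrix proteases and inhibitors 10 fell and 3 rose on scaled TPM, but 4 were lower and 7 higher on deposited TPM, and 2 fell with the fibroblast covariate. Against the other knockouts 12 were higher and 2 lower. Plaur, the urokinase receptor, fell from 312, 326 and 353 to 131, 143 and 168 (log2 -1.16, adjusted p 6.58e-07) and Plat, tissue plasminogen activator, by 0.92. Mmp3, stromelysin 1, fell by 1.06, while Mmp2, gelatinase A of mesenchymal cells, rose from 1.32 to 2.78 up to 6.92 to 10.5.

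Of 14 genes for ERBB receptors and their ligands 6 fell and 5 rose (median 0.05). The 6 were lower on deposited TPM as well, on which 8 were higher, and with the fibroblast covariate 6 fell and none rose. Against the mean of the other knockouts 8 of the 14 were higher and 3 lower. Areg, amphiregulin, a ligand of EGFR, fell from 80.1, 90.1 and 97.8 to 12.3, 26.9 and 16.3 (log2 -2.28, SE 0.20, adjusted p 5.38e-06), and the ligand Btc by 0.62. The other knockouts were also below WT for both ligands. Against their mean Klf5KO was lower for Areg (log2 -0.61, adjusted p 0.0113) and higher for Btc (log2 0.32, adjusted p 0.00033). Adam17, the protease that sheds these ligands, rose by 0.25. Of 17 feedback and output genes of the ERK pathway 8 fell and 2 rose, whereas 6 were lower and 8 higher on deposited TPM and 3 lower and 9 higher than in the other knockouts. With the fibroblast covariate 5 fell. Dusp5, a phosphatase of nuclear ERK, fell by 1.42, Phlda1 by 1.10 and Myc from 97.6, 96.6 and 101 to 51.7, 63.4 and 53.4 (log2 -0.80, SE 0.069, adjusted p 3.84e-06). The cyclin gene Ccnd1 rose from 180 to 186 up to 223 to 265 (log2 0.44).

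Immediate-early genes, which stimuli and handling of cells switch on within minutes, fell as a group. Of 19, 18 fell and none rose (median -1.46), 17 of them on deposited TPM too. Nr4a1, an orphan nuclear receptor, went from 31.1, 37.4 and 35.5 to 7.39, 10.4 and 9.07 (log2 -1.85, SE 0.10, adjusted p 2.39e-07), and Socs3, a feedback inhibitor of cytokine signalling, from 129 to 140 down to 65.6 to 71.9. Both other knockouts also lay below WT, at 18.8 to 20.6 and 14.3 to 15.3 for Nr4a1, but Klf5KO was lower still (log2 -0.87, adjusted p 9.07e-06). These contrasts share the WT libraries.

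Of 27 TGF-beta and BMP genes 12 fell and 5 rose on scaled TPM, but 6 were lower and 15 higher on deposited TPM and 7 lower and 17 higher than in the other knockouts. With the fibroblast covariate 6 fell and 2 rose. Bhlhe40, a transcriptional repressor that many stimuli induce, fell from 335, 355 and 374 to 101, 141 and 118 (log2 -1.57, SE 0.093, adjusted p 3.61e-07), with no overlap. The receptor Tgfbr1 and the ligand Tgfb3 rose by 0.61 and 0.80. In the Wnt list 9 of 22 rose and 6 fell, and 5 rose and 2 fell with the fibroblast covariate. Wnt10a, a secreted ligand, rose from 11.5, 9.43 and 6.96 to 45.1, 46.9 and 59.9 (log2 2.34, SE 0.15, adjusted p 6.28e-07) and exceeded the other knockouts by 1.27, whereas Wnt7a fell from 3.21 to 4.38 down to 0.21 or less. Of 14 Notch genes 6 fell and 4 rose, and 5 fell and 1 rose with the fibroblast covariate. The ligands Dll1 and Jag2 fell by 1.08 and 1.02 and the target Hes1 by 0.70, while the receptors Notch1 and Notch2 rose by 0.51 and 0.42. Of 18 YAP and TEAD genes 7 rose and 6 fell on scaled TPM, 9 were higher and 1 lower on deposited TPM, and 13 were higher and 3 lower than in the other knockouts. With the fibroblast covariate none rose and 2 fell. Cyr61, a matricellular target, fell by 0.89 and Axl, a receptor kinase, rose by 0.28.

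Genes of sugar breakdown and of the response to low oxygen fell together. Of 20 glycolysis genes 19 fell and none rose (median -0.79), 16 of them on deposited TPM too. Pfkfb3, whose product makes the activator of phosphofructokinase, went from 40.7, 42.8 and 49.3 to 11.5, 17.0 and 10.9 (log2 -1.70, SE 0.13, adjusted p 2.12e-06), and Gpi1, glucose phosphate isomerase, from 558, 596 and 632 to 305, 348 and 334. Gapdh, often used as a reference gene, fell from 8350, 8830 and 9640 to 4380, 5460 and 5010 (log2 -0.86), a direction that quantile normalization turned (0.14, adjusted p 0.102). Of 18 hypoxia-induced genes 16 fell and 1 rose (median -1.24), and 8 fell with the fibroblast covariate. Car9, the carbonic anhydrase of hypoxic tumour cells, fell from 212, 232 and 216 to 37.2, 61.0 and 35.4 (log2 -2.32, SE 0.15, adjusted p 7.37e-07), and Ero1l, an oxidase for disulfide bonds, by 1.80. Klf5KO replicate 2 was the highest of the 3 Klf5KO libraries for each of these hypoxia genes. Against the other knockouts 11 of 18 were lower and 3 higher; Car9 was at 72.4 to 73.9 in EgfrKO and 232 to 250 in Smad4KO. Lox, a collagen cross-linking enzyme, was the member that rose. The core letters of the hypoxia response, ACGTG on either strand, were in the promoters of 10 of 13 members with one (76.9%), against 24.4% of all. Over all tested genes they did not mark the fall: 26.3% of genes that fell held them, and 22.8% of those that rose. Among genes that changed by at least 1, 24.1% of those that fell and 12.3% of those that rose held them.

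Cholesterol synthesis was lower too. Of 24 genes 21 fell and none rose (median -0.58), 12 of them on deposited TPM, on which 3 were higher. Fdps, farnesyl diphosphate synthase, went from 239, 230 and 211 to 131, 127 and 139 (log2 -0.77, SE 0.062, adjusted p 2.34e-06). Fdps was at 249 to 288 in the other 6 libraries, so that Klf5KO was 1.01 lower (adjusted p 5.79e-08), and 18 of the 24 were lower in that contrast with 1 higher. Fdft1, squalene synthase, fell from 43.6 to 49.7 down to 22.4 to 26.2. Of 20 fatty acid synthesis genes 7 rose and 7 fell on scaled TPM, but 12 were higher and 4 lower on deposited TPM, and with the fibroblast covariate none rose and 2 fell. The desaturase Scd1 fell by 0.74 and Fads2 rose by 0.59. Of 77 nuclear genes for oxidative phosphorylation subunits 65 fell and none rose (median -0.42), but 24 were lower and 11 higher on deposited TPM. These genes have short transcripts, and 51 fell once the trend with length was removed. With the fibroblast covariate 7 fell, and 2 fell by more than a minimum log2 change of 0.5. Among genes of the ATF4 amino acid response 6 of 21 fell, a share near that over all genes, and 2 rose, while 4 were lower and 11 higher on deposited TPM. Atf4 itself was at 347, 371 and 393 in WT and 151, 203 and 174 in Klf5KO.

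Of 24 genes for replication and mitosis 12 rose and 1 fell (median 0.22), and 23 were higher on deposited TPM. With the fibroblast covariate none rose and 1 fell, beside 897 and 1220 of all 13662 genes, so these small counts say little about the list. With a minimum log2 change of 0.5 only 1 rose, beside 502 of all genes. Against the other knockouts 5 were higher and 6 lower (median 0). Top2a, the topoisomerase of dividing cells, went from 45.7, 48.7 and 45.4 to 90.3, 69.6 and 87.1 (log2 0.80, SE 0.093, adjusted p 3.64e-05), and the proliferation marker Mki67 from 22.4 to 24.8 up to 33.5 to 45.7. Of 19 G1 regulators 7 rose and 3 fell, and with the fibroblast covariate none rose and 1 fell. Cdk6 and Ccnd2 rose by 0.62 and 0.43, and Cdkn1a, the p21 inhibitor of cyclin-dependent kinases, fell from 40.5, 58.1 and 59.3 to 12.1, 14.1 and 17.9 (log2 -1.77, SE 0.15, adjusted p 3.92e-06). Of 63 replication histone genes, whose messengers mostly lack a poly(A) tail, 40 fell and none rose (median -1.17), and with the fibroblast covariate 10 fell and 1 rose. Hist1h1c, a linker histone, went from 355 to 451 down to 136 to 161.

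Of 19 heat shock genes 9 fell and 4 rose on scaled TPM, but 4 were lower and 10 higher on deposited TPM, and with the fibroblast covariate 2 fell and 2 rose. Hspb1, a small chaperone, fell from 777 to 875 down to 210 to 408, and Hspa1a by 2.45, while Hsph1 rose by 0.33. Of 20 chaperones of the endoplasmic reticulum 11 rose and 4 fell, and 4 rose and none fell with the fibroblast covariate. Hyou1, one of those that rose, went from between 51.1 and 56.6 to between 66.6 and 81.9. Of 37 proteasome subunits 16 fell and 8 rose (29 higher and 1 lower on deposited TPM), and with the fibroblast covariate 2 fell and 3 rose. The constitutive catalytic subunit Psmb5 fell by 0.55 while its interferon-induced counterpart Psmb8 rose by 2.70.

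Lists for antigen presentation had the highest medians. All 9 genes of MHC class II, which present peptides to CD4 T cells, rose (median 3.29). Of 18 genes of MHC class I and peptide loading 16 rose and none fell (median 1.68). All of these were also higher on deposited TPM, which the scaling makes nearly given for rises. H2-Eb1, a class II chain, went from 46.6, 39.3 and 18.3 to 466, 403 and 444 (log2 3.72, SE 0.27, adjusted p 1.15e-06), and Ciita, the class II transactivator, from 1.8, 1.6 and 0.568 to 21.9, 14.4 and 17.7. H2-K1, a class I heavy chain, rose from 1240, 992 and 742 to 3320, 3320 and 3600, Nlrc5, the class I transactivator, by 2.52, and Psmb8, a subunit of the immunoproteasome, from 77.7, 52.1 and 29.1 to 356, 280 and 347. In WT these genes were lowest in replicate 3, and still no library overlapped. Interferon-stimulated genes rose in 24 of 33 and fell in 1 (median 1.35), and on deposited TPM 30 were higher and none lower. Gbp4, a guanylate-binding protein, went from 9.06, 5.59 and 3.24 to 78.2, 58.1 and 66.0 (log2 3.37, SE 0.24, adjusted p 1.01e-06). On scaled TPM, members typical of the type I response were among those not called. Examples, both chosen after their values were seen, are Isg15 (log2 0.32, adjusted p 0.233) and Ifit1 (log2 0.39, adjusted p 0.145). Oasl1 fell by 0.51, a fall that did not hold on deposited TPM. Of 11 complement genes 7 rose and 3 fell, and 4 rose and 1 fell with the fibroblast covariate, with C1s1 at 2.42 to 5.89 in WT and 21.5 to 28.1 in Klf5KO.

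Medians of the antigen presentation and interferon lists lay between 0.02 and 0.26 against the other knockouts. Against the mean of EgfrKO and Smad4KO, 4 of the 18 class I genes were higher and 2 lower (median 0.02), 2 of the 9 class II genes were higher (median 0.26), and 4 of 33 interferon-stimulated genes were higher and 10 lower (median 0.02), the latter near the share over all genes. Of the 11 complement genes 8 were lower than that mean and none higher (median -0.51), but the 2 other knockouts differed from each other. C3 averaged 181 in Klf5KO, above the 119 of EgfrKO and below the 635 of Smad4KO. C2, at 1.55, was below both (7.90 and 16.0). Psmb8 stood at 346 to 368 in EgfrKO and 236 to 288 in Smad4KO, and differed between Klf5KO and their mean by 0.08 (SE 0.22, adjusted p 0.772). H2-K1 was 1.81, 1.79 and 1.79 above WT in Klf5KO, EgfrKO and Smad4KO, 3 differences that share the WT libraries. Of the genes named above, Nlrc5, Gbp4 and Ciita were above the mean of the other knockouts, by 0.67, 0.63 and 0.59 (adjusted p 0.00371, 0.0201 and 0.0118). Taken singly, Ciita was 0.91 above EgfrKO (adjusted p 0.00293) but was not called against Smad4KO (0.27, adjusted p 0.259).

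**Figure D4:**
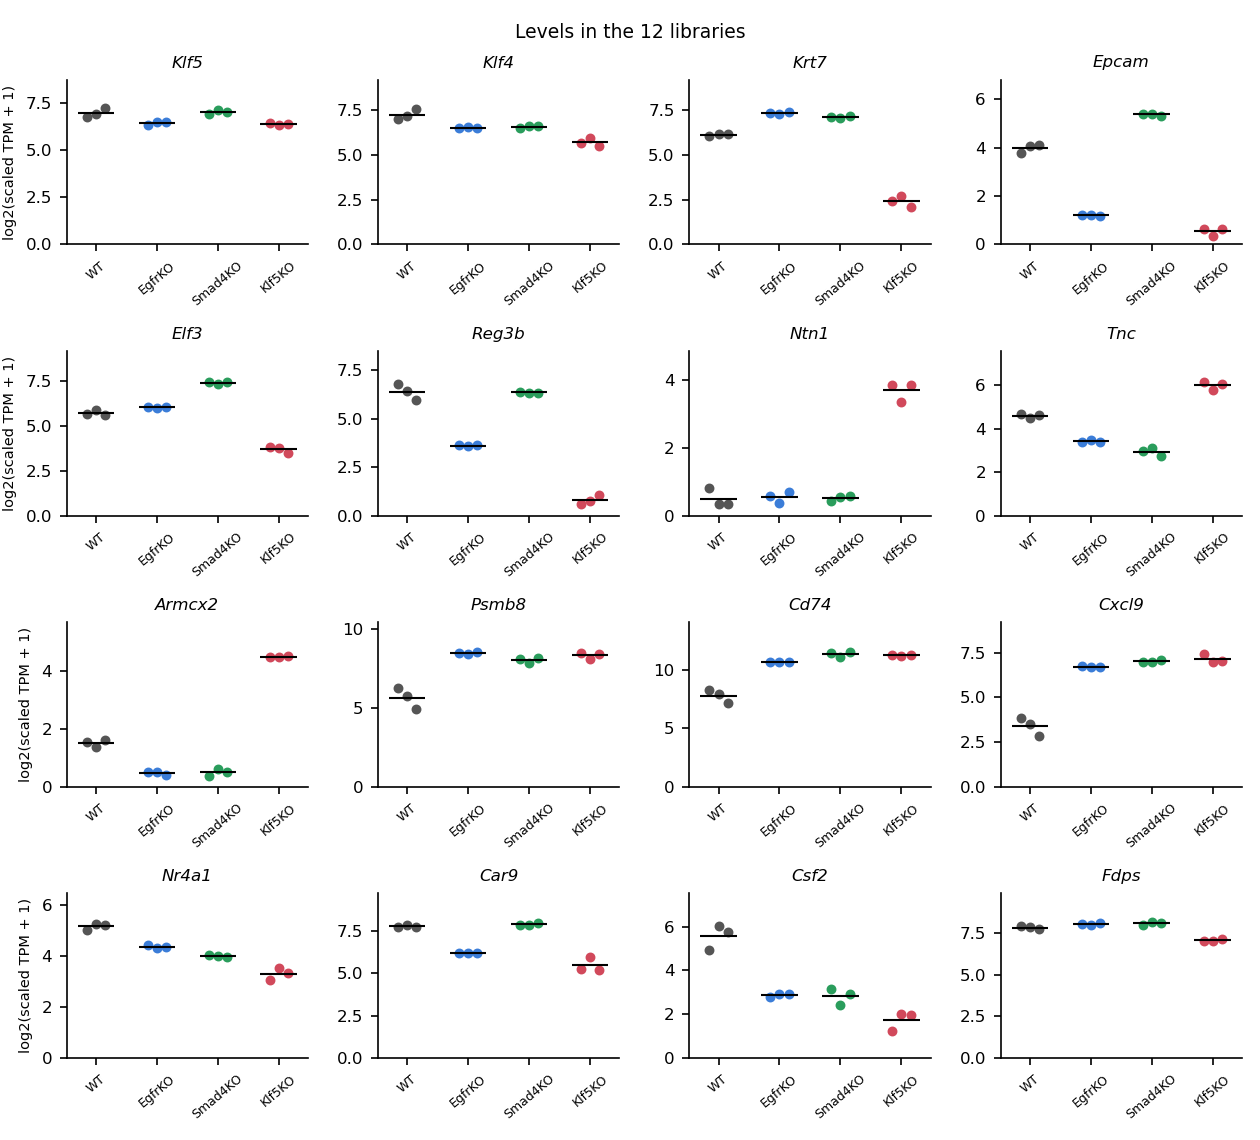
Levels of 16 genes in each of the 12 libraries as log2(scaled TPM + 1) (y axis), by genotype (x axis), with a black line at the mean of 3 libraries. Krt7, Elf3 and Reg3b are lowest and Ntn1, Tnc and Armcx2 highest in Klf5KO, whereas Psmb8, Cd74 and Cxcl9 lie at similar levels in the 3 knockouts and lower in WT.

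The promoters of Gbp5 and Gbp3 are shown as examples from the interferon-stimulated and class I genes. Both were among the largest rises of those whose available promoter holds the interferon-stimulated response element. This element is GAAA, any 2 bases and GAAA on either strand. Not every member was eligible, and Gbp3 was chosen as an example after its value was seen. Both are 250 bases upstream of the RefSeq start on GRCm38.p6, plus strand, with the matches in capitals.
Gbp5, chr3:142496684-142496933: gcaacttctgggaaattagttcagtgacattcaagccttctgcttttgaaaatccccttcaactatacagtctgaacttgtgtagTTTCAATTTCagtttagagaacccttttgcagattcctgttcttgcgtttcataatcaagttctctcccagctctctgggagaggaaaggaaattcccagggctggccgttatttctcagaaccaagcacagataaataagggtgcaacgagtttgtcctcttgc
Gbp3, chr3:142559794-142560043: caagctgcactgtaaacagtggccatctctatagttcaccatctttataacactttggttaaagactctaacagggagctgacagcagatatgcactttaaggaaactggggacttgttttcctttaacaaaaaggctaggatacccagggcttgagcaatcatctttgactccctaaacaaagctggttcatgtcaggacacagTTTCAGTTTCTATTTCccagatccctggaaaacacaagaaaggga
Gbp5 rose from 3.98, 3.11 and 2.15 to 38.5, 28.8 and 28.5, and Gbp3, with 2 overlapping matches, by 2.71. The element was in 13 of 24 interferon-stimulated genes with a promoter (54.2%) and in 15.1% of the genes that rose by at least 1, against 3.45% of all.

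Secreted signals for immune cells split by type. Of 17 cytokines and chemokines that attract or feed myeloid cells, 13 fell and 1 rose (median -1.21), and 6 fell with the fibroblast covariate. Csf2, the growth factor GM-CSF, went from 29.9, 64.5 and 54.0 to 1.35, 3.07 and 2.88 (log2 -3.85, SE 0.29, adjusted p 1.57e-06), and Cxcl1, a neutrophil chemokine, from 82.2, 164 and 157 to 10.7, 24.1 and 10.4. Csf2 was 4.33 to 7.84 in the other knockouts, above every Klf5KO library (log2 -1.11, adjusted p 0.00252). Of 8 chemokines that attract T cells 5 rose and 2 fell, and 3 rose and none fell with the fibroblast covariate. Against the mean of the other knockouts 2 were higher and 2 lower (median 0.12). Ccl5 rose from 3.12, 1.32 and 0 to 23.1, 33.9 and 30.1 (log2 3.81, SE 0.43, adjusted p 2.79e-05) and Cxcl10, an interferon-induced chemokine, from 26.2 to 43.5 up to 122 to 139, whereas Ccl3 and Ccl4 fell by 1.28 each.

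Markers of other cells in the sorted material moved in part. T and NK cell markers rose in 7 of 10 and fell in none, in 2 with the fibroblast covariate, and their summed deposited TPM was 2.89 to 7.14 in WT and 17.1 to 26.3 in Klf5KO. Nkg7, a granule protein of cytotoxic cells, was at 0, 0.126 and 0.422 in WT and 4.78, 2.37 and 3.97 in Klf5KO, and Cd3g, a T cell receptor chain, at 0 to 0.264 and 1.11 to 2.23. Ccl5 is also made by these cells, and their part in its rise was not tested. None of 15 macrophage markers passed, with sums of 780 to 1540 in WT and 1110 to 1750 in Klf5KO. Of 7 general leukocyte markers Ptprc alone rose, and of 4 endothelial markers 3 rose and 1 fell, with sums of 9.0 to 9.04 and 19.6 to 22.6. No B cell or skeletal muscle marker reached the level for testing. Among markers of the labelled cell type, the ductal tumour cell, 6 of 7 fell and 1 rose; Krt7 and Epcam fell to the low levels given above, while Krt19 and Sox9 stayed at 597 or more and 83.0 or more scaled TPM in every Klf5KO library. Cela1, an elastase of acinar cells, fell from 65.6, 59.2 and 62.0 to 18.8, 15.8 and 15.9.

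The largest single changes include genes outside these lists. Adgrg7, an adhesion receptor of the gut, rose from 1.16, 1.19 and 0.527 to 56.1, 43.3 and 49.8 (log2 4.71, SE 0.15, adjusted p 8.48e-09), and EgfrKO and Smad4KO, at 14.2 to 21.6, were also above WT. Il12rb1, a receptor chain for IL-12 and IL-23, rose from 2.06 to 2.82 up to 32.7 to 47.2 and was 2.05 above the other knockouts (adjusted p 1.06e-07). Crisp1, a secreted cysteine-rich protein known from the epididymis, gained 0.322 percentage points of TPM and rose from 743, 600 and 548 to 3140, 3110 and 3650 (log2 2.39, adjusted p 1.57e-07). On the falling side, Bmyc, a short relative of Myc, went from 31.9, 30.3 and 36.5 to 0.568, 0.687 and 1.01 (log2 -4.28, SE 0.12, adjusted p 3.88e-09), and Evc2, a protein of the cilium base in hedgehog signalling, from 11.5, 10.3 and 11.5 to 0.0987, 0.0866 and 0.0542 (log2 -3.48, SE 0.077, adjusted p 1.02e-09). Evc2 stood at 6.35 to 13.4 in the other 6 libraries, and Otop3, a proton channel, at 13.4 to 33.1 there, 16.4 to 17.8 in WT and 0.151 to 0.82 in Klf5KO.

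The genes that follow are among the largest differences from the other knockouts. Ntn1, the guidance and survival factor netrin 1, was at 0.754, 0.259 and 0.275 in WT, at 0.286 to 0.606 in the other knockouts and at 13.5, 9.13 and 13.5 in Klf5KO (against the other knockouts log2 3.15, SE 0.15, adjusted p 3.24e-08). Soga3 went from 2.94, 3.06 and 3.58 to 30.2, 25.3 and 24.7, with 1.45 to 3.52 in the other knockouts. Armcx2 rose from 1.59 to 2.08 up to 21.4 to 22.4 while the other knockouts lay below WT, at 0.282 to 0.538 (log2 4.03, adjusted p 1.43e-10). Matrix genes Col12a1 and Fstl1 and the hormone gene Stc1 had the same order, highest in Klf5KO and lowest in the other knockouts, and exceeded them by 3.01, 2.96 and 2.89. Gpx2, a glutathione peroxidase of gut epithelium, was at 0, 0.14 and 0 in Klf5KO, 3.99 to 7.72 in WT, 2.79 to 3.38 in EgfrKO and 110 to 121 in Smad4KO. Gsta1, a glutathione transferase, was at 0.792 to 3.28 in Klf5KO, 23.7 to 33.3 in WT, 80.2 to 88.3 in EgfrKO and 341 to 354 in Smad4KO.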

How the data were processed

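RNA was sequenced from 12 libraries, 3 for each of 4 genotypes, and the deposited table gives gene-level TPM values that the authors made. Salmon and the mouse build mm10 are named per the submitters' processing notes; its version and the transcript set were not given in the sources used here. Read depth cannot be recovered from TPM, and is unknown, so counting error is not given.

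A gene was kept where 3 or more libraries held a TPM of 1 or more. Each library was divided by a median-of-ratios factor, and log2 values with a pseudocount of 1 were fitted with limma 3.58.1 (R 4.3.3) as 4 genotype means over all 12 libraries, with a trend in the variance and Benjamini-Hochberg adjusted p under 0.05 as the threshold. Fold changes are on the log2(value + 1) scale, which understates the change of low genes. Klf5KO was compared with WT and with the mean of EgfrKO and Smad4KO. Single values were compared with exact permutation tests. The fit was tested on simulated data for Klf5KO against WT over 13662 genes, with 67, 67 and 66 genes changed by 0.5, 1 and 2 on the log2 scale. Of these 77.6%, 94% and 100% were recovered, with 10 false calls among 13462. Noise was independent and normal, and changes had random directions and spared genes at the lowest levels. Neither a shift of scale nor a trend with length was simulated, so these rates need not hold for the real data.

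The comparison, gene lists and naming rule were chosen with earlier results of these data known. Named genes are the 3 targeted genes, the 15 largest changes per direction between libraries that do not overlap with a mean of at least 5 scaled TPM, up to 3 called members per direction of each list by adjusted p, the 8 largest differences per direction from the other knockouts and the 10 largest changes per direction in share of TPM. Transcript lengths came from GENCODE M21, and coordinates and promoters from RefSeq on GRCm38.p6. Alternatives were other scalings, pseudocounts, filters, covariates, a replicate block, a minimum change and leaving out each library.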

Additional observations from a re-analysis of the deposited data

How the results depend on the processing

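Counts of genes moved with the scale, with the fibroblast covariate and with a minimum change. Against WT, 7536 genes were higher and 1518 lower on deposited TPM, 6034 and 1914 with ribosomal protein genes left out and the rest rescaled, and 7072 and 1676 with the 20 most abundant genes left out, compared with 3397 and 3732 on scaled TPM. Against EgfrKO and Smad4KO the counts were 6327 and 2476 on deposited TPM and 6254 and 2549 without the 20 most abundant genes, compared with 4078 and 4234. The fibroblast markers summed higher in Klf5KO than in WT, so calls lost under that covariate cannot be assigned to fibroblast content. Adding these markers as a covariate left 897 genes above and 1220 below WT, and 1534 and 1613 against the other knockouts. With a minimum log2 change of 0.5 these were 502 and 733, and 666 and 915. Klf5 did not pass with the fibroblast covariate (-0.36, adjusted p 0.201) or with the minimum change (-0.6, adjusted p 0.928). The causes were not tested.

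Leaving out each library in turn gave 2941 to 3248 higher and 3310 to 3600 lower genes against WT, 3604 to 4030 and 3797 to 4203 against the other knockouts, a Klf5 difference of -0.7 to -0.48 (highest adjusted p 0.00171) and a ribosomal protein difference of -7.31 to -6.55 percentage points. Removing the trend with transcript length, an alternative chosen after seeing the data, gave 3170 higher and 3544 lower. Replicate numbers did not pair the libraries: deviations of same-numbered WT and Klf5KO libraries correlated at 0.00682, -0.00378 and 0.0274. With the replicate block 3285 genes were higher and 3653 lower than WT, 3974 and 4169 against the other knockouts, and Klf5 differed by -0.6 (adjusted p 5e-04).

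Among the named genes other than Klf5, 32 lost their call with the fibroblast covariate and 102 did not change. With the minimum log2 change of 0.5 these were 36 and 98. In other settings 3 named genes turned direction. Smad4, not called on scaled TPM, was higher by 0.34 on deposited TPM, by 0.22 without ribosomal protein genes and by 0.3 without the 20 most abundant genes. Vim was at 0.04 on deposited TPM and 0.44 with quantile normalization, and Gapdh at 0.14 with quantile normalization.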
